A study of Mus musculus with 6 samples.

Results

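Pendrin-positive intercalated cells were studied as 804 single-cell barcodes out of 50910 that passed a depth and quality filter, which is 1.58% of them, and out of 76774 barcodes in all 6 kidney libraries. Each member held at least 1000 unique molecular identifiers (UMIs, one per captured transcript), at most 50% of them from mitochondrial genes, and at least 2 UMIs of Slc26a4, the gene that encodes pendrin. Barcodes were left out when the proximal tubule genes Lrp2, Slc34a1, Slc5a12 and Slc22a6 together took over 0.2% of their UMIs, when Slc12a1 or Slc12a3 exceeded 1 UMI, or when any UMI of Ptprc, Pecam1 or Col1a1 was present. The rule therefore used measured values, and Slc26a4 and the genes of the exclusions are described below without a test. The 2 groups were 3 sham mice and 3 DOCA-salt mice, all male C57BL/6 animals that were 8 to 10 weeks old at purchase, with 1 whole-kidney library per mouse. DOCA-salt mice had the left kidney removed, received a 50 mg pellet of deoxycorticosterone acetate (DOCA, a mineralocorticoid) a week later and drank 1% NaCl for 21 days, whereas sham mice had sham surgery and drank normal water. The effects of the nephrectomy, the steroid and the salt cannot be told apart in this design. The p-values of DOCA-salt against sham measure the spread between mice. Those of comparisons between cell sets of the same mice measure how the differences within a mouse vary from mouse to mouse.

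Intercalated cells are scattered among the principal cells of the connecting tubule and collecting duct and handle acid and base. Type A cells secrete protons through an apical V-ATPase and return bicarbonate to the blood through the exchanger AE1 (Slc4a1). Pendrin-positive cells, which comprise the type B and the non-A, non-B cells, exchange luminal chloride for bicarbonate through apical pendrin, and in type B cells the basolateral exchanger AE4 (Slc4a9) and a basolateral V-ATPase work with it. Pendrin is known as a chloride entry route of the aldosterone-sensitive nephron that works alongside the epithelial sodium channel, which is why the response of these cells to a mineralocorticoid and salt load is of interest.

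The libraries held between 93172739 and 137819127 UMIs. The members of 1 mouse summed to between 1733643 and 2423404 UMIs, with a median of 15848.5 UMIs per cell (range 1018 to 75188). Between pairs of libraries 699 barcodes were shared, none of them a member's. Median depth per cell overlapped between the groups, at 18159.5, 15408 and 14532 UMIs in Sham 1, 2 and 3 and 17447.5, 17301 and 13557 in DOCA-salt 1, 2 and 3. The mitochondrial share did not overlap: its median over members was 21.0%, 20.8% and 23.7% in the sham mice and 30.4%, 32.6% and 33.1% in the DOCA-salt mice. The group means of 21.8 ± 1.60% and 32.0 ± 1.42% (SD, n = 3 each) had a two-sided exact permutation p of 0.1, the smallest that 3 mice against 3 allow. The comparison of DOCA-salt with sham members was therefore repeated without the mitochondrially encoded genes, where all 71 named genes kept their direction and side of the threshold, and in cells with at most 20% mitochondrial UMIs, where of 64 that could be tested 27 did so, 27 lost the call and 10 changed sign.

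Members numbered 138, 149 and 175 in Sham 1, 2 and 3, and 126, 98 and 118 in DOCA-salt 1, 2 and 3. As a share of the barcodes that passed the filter this was 1.55%, 2.07% and 2.01% in the sham mice and 1.45%, 1.08% and 1.42% in the DOCA-salt mice. The mean share was thus 1.88 ± 0.284% in sham and 1.31 ± 0.207% in DOCA-salt kidneys (SD, n = 3 each), and the groups did not overlap, although Sham 1 lay close above DOCA-salt 1. These shares follow from the rule and are given without a test, and the cells recovered by digestion cannot be told apart from the cells present. Type A cells, taken as barcodes with at least 2 Slc4a1 UMIs and no Slc26a4 UMI under the same exclusions, took 1.20 ± 0.232% and 1.38 ± 0.252%. Principal cells took 3.19 ± 0.848% in sham and 1.26 ± 0.163% in DOCA-salt kidneys, also without overlap. Members made up 53.5%, 69.0% and 60.6% of both intercalated sets together in the sham mice and 54.3%, 46.2% and 45.9% in the DOCA-salt mice, ranges that overlapped. Over all filtered barcodes of a kidney, Slc26a4 was read at 84.2, 83.4 and 105 CPM (counts per 1000000 UMIs) in the sham mice and at 72.8, 55.3 and 62.2 CPM in the DOCA-salt mice. Members held between 54.4% and 78.0% of those Slc26a4 UMIs.

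**Figure D1:**
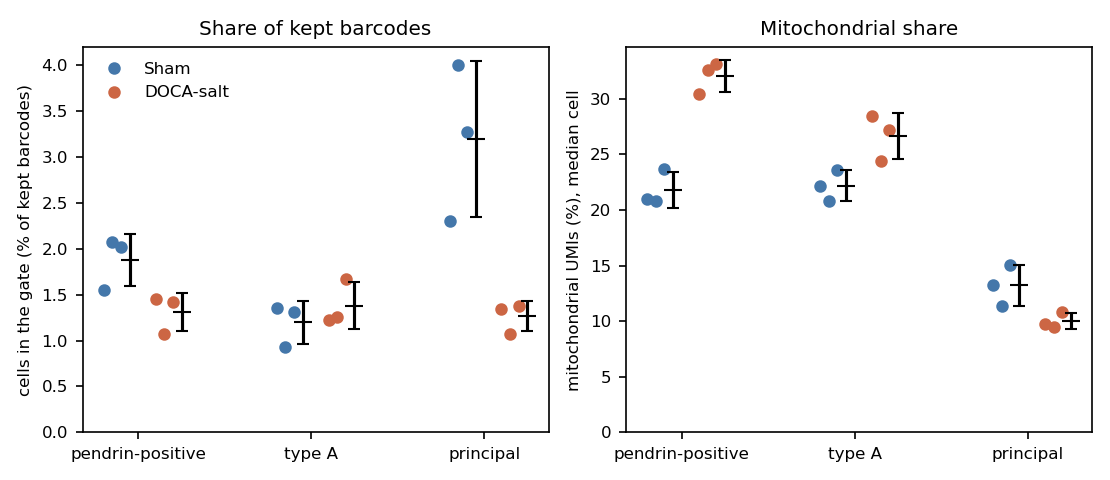
Left, share of filtered barcodes (percent) that fell into the pendrin-positive, type A and principal cell sets, and right, the median mitochondrial share of their UMIs (percent), with 1 point per mouse and bars for the mean and SD of 3 mice. Pendrin-positive shares lay between 1.55% and 2.07% in sham and between 1.08% and 1.45% in DOCA-salt mice, and their mitochondrial share was 20.8% to 23.7% and 30.4% to 33.1%.

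The label was checked against markers that the rule did not use. Because a deeper cell shows a marker more often, each cell's profile was thinned to 1000 UMIs before the share of cells with a UMI was taken. Slc4a9 had a UMI in 67.9 ± 4.50% of sham members so thinned (98.1% before thinning), and the V-ATPase subunit gene Atp6v1g3 in 80.2 ± 4.54%. In principal cells, taken as barcodes with at least 3 Aqp2 UMIs and neither Slc26a4 nor Slc4a1, the same shares were 0.402% and 1.81%. In type A cells they were 39.7 ± 3.97% and 75.5 ± 1.81%, so that Slc4a9 was apart from members in every sham mouse while Atp6v1g3 overlapped with them. Insrr, which encodes an alkali-sensing receptor of the insulin receptor family, had a UMI in 37.1 ± 4.25% of thinned sham members, against 2.53% of type A and 0.131% of principal cells. Hmx2, a homeobox gene, stood at 30.8 ± 8.95%, against 0.176% and 0.212%. Type A markers were low in members: Aqp6 had a UMI in 6.28 ± 0.811%, Kit in 4.54 ± 1.25% and Slc4a1 in 2.54 ± 0.868% of thinned sham members, against 82.7%, 37.7% and 65.5% of type A cells, where Slc4a1 defines the set. The marker genes therefore went with the name. RNA of other tubule segments was read as well: Umod of the thick ascending limb in 30.7 ± 11.6% of thinned sham members, 10.0% of type A and 11.2% of principal cells.

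Slc26a4 ranged from 2 to 157 UMIs per member with a median of 27, and 372 members had 30 or more. At the boundary of the rule, 25 cells had exactly 2 UMIs and 218 cells, which met every other condition, had 1 and were left out. Of the cells just inside, 64% had an Slc4a9 UMI (95% exact Clopper-Pearson interval 42.5 to 82.0, counting error only) and 68% an Atp6v1g3 UMI (46.5 to 85.1). Of those just outside, 17.0% (12.2 to 22.6) and 31.2% (25.1 to 37.8) had one. Insrr was read in 40% of the cells just inside and 5.50% of those just outside. The 109 cells with 3 to 9 Slc26a4 UMIs had Slc4a9 in 91.7%, and all 372 cells with 30 or more had it. Without thinning, Slc4a1 moved the other way, from 24% of the cells with 2 UMIs to 6.18% of the cells with 30 or more. The type A markers Kit (28% and 36.6%) and Aqp6 (32% and 32.8%) did not. Median depth differed between these cells, at 9040 and 18756 UMIs. After thinning the shares were 10.7% and 1.46% for Slc4a1, 8.38% and 5.49% for Kit and 20.4% and 8.88% for Aqp6. Thinned Kit and Aqp6 were lowest in the cells with 3 to 9 UMIs, at 2.57% and 6.12%.

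**Figure D2:**
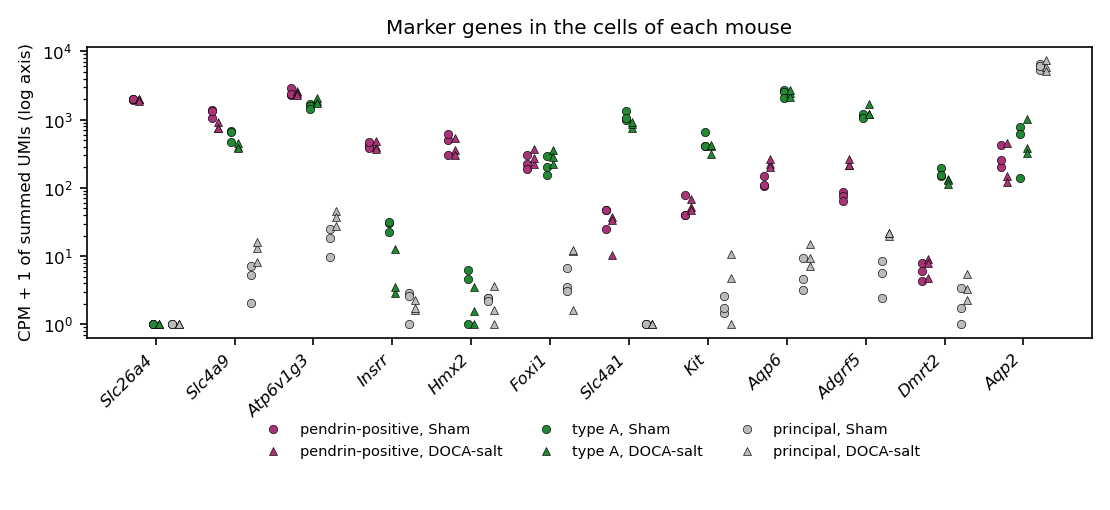
CPM + 1 of marker genes on a log axis in the summed pendrin-positive, type A and principal cells, with a circle for each sham and a triangle for each DOCA-salt mouse. Slc4a9, Atp6v1g3, Insrr and Hmx2 lay higher and Aqp6, Kit, Dmrt2 and Adgrf5 lower in the pendrin-positive than in the type A cells of every mouse, while Slc26a4, Slc4a1 and Aqp2 defined the sets.

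To see what members share beyond pendrin, their UMIs were summed per mouse and compared with those of the type A cells of the same 6 mice (edgeR quasi-likelihood test with the mouse as a block, Benjamini-Hochberg adjustment over 9928 genes). Both sets were picked from the same libraries by their own genes, so the test describes how the 2 sets differ. Of all genes, 1331 were higher in members (13.4%) and 1261 lower (12.7%) at an adjusted p below 0.05. CPM in this comparison were scaled over the sums of both cell types.

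The 10 genes furthest above type A cells, among those of at least 50 CPM in members and higher in 6 of 6 mice, were 4930469K13Rik, Lsamp, Syt7, Hmx2, Ank, Thsd7a, Dcn, Igfbp5, Astn2 and Plxna4. Lsamp, a cell adhesion gene of the immunoglobulin superfamily, ran from 2117 over a median of 2317 to 2376 CPM in members and from 3.42 over 5.03 to 14.3 CPM in type A cells, a log2 difference of 8.14 (SE 0.17, edgeR adjusted p = 6.86e-18). Hmx2 ran from 312 over 440 to 604 CPM in members and from 0 over 1.48 to 5.14 CPM in type A cells, a log2 difference of 7.69 (SE 0.21, adjusted p = 2.04e-16). Its genome neighbour Hmx3, on the same strand of chromosome 7 (GRCm39, Hmx3 at 131144596 to 131146654 and Hmx2 at 131150502 to 131159744), had 114 UMIs in members and none in type A cells. Against a floor of 3 UMIs over the 6 type A sums this is at least 26.1-fold higher. Syt7, a calcium sensor of vesicle fusion, averaged 173 CPM against 0.685 CPM in type A cells (log2 difference 7.74). Ank, a transporter involved in pyrophosphate export, averaged 108 against 0.885 CPM (6.64), and Igfbp5, which binds insulin-like growth factors, 1292 against 22.0 CPM (5.84). Dcn, which encodes the matrix proteoglycan decorin and is a common fibroblast marker, averaged 87.9 ± 51.0 CPM (SD, n = 6) in members and 1.28 ± 1.15 CPM in type A cells (5.98). The stromal marker Rgs5 was lower in members, and Col1a2 and Col3a1 did not reach the count needed for a test. The noncoding 4930469K13Rik, at 231 against 0.748 CPM, overlaps Kcnip1 on the same strand and is uncertain.

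By the same rule, furthest below type A cells and lower in 6 of 6 mice were Slc26a7, Negr1, 2610016A17Rik, Dmrt2, Calcr, Slc35f1, Pgm5, Muc20, Aqp6 and Kctd8. Slc26a7, a basolateral chloride and bicarbonate exchanger of the pendrin family, ran from 0 over 2.20 to 6.78 CPM in members and from 69.9 over 111 to 131 CPM in type A cells (log2 difference -5.15, SE 0.23, edgeR adjusted p = 6.51e-13). Dmrt2, a transcription factor gene of type A cells, averaged 5.99 against 137 CPM (-4.57), and 2610016A17Rik, which lies next to it on the opposite strand, 2.67 against 68.7 CPM (-4.72). Aqp6, an intracellular water and anion channel, ran from 104 over 182 to 288 CPM in members and from 1986 over 2312 to 2614 CPM in type A cells (-3.72). Adgrf5, an adhesion G protein-coupled receptor, averaged 163 against 1185 CPM (-3.06) and the receptor tyrosine kinase Kit 56.5 against 413 CPM (-2.91). The calcitonin receptor Calcr averaged 2.91 against 56.4 CPM (-4.23).

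Of 20 tested genes of anion exchange and ion transport, 9 were higher and 5 lower in members, with a median log2 difference of 0.26 beside 0.00 over all genes (0.00450). Slc4a9 ran from 815 over 997 to 1412 CPM in members and from 376 over 430 to 656 CPM in type A cells (log2 difference 1.14, SE 0.06, edgeR adjusted p = 1.86e-11). The carbonic anhydrases Car15 (1972 against 259 CPM) and Car12 (1703 against 679 CPM) and the Na,K-ATPase regulator Fxyd2 (4240 against 2279 CPM) were higher. So were the endosomal exchanger gene Clcn3 (0.86 on the log2 scale), Slc4a2 and Atp4a, the last of which did not pass without the mouse block (edgeR adjusted p = 0.0696). Lower were Slc26a7, the basolateral chloride cotransporter gene Slc12a2 (13.3 against 53.2 CPM, -2.03), Slc4a8 and the ammonia transporters Rhbg (353 against 575 CPM, -0.72) and Rhcg (-0.33). Slc26a4, which defined the sets, averaged 2075 CPM in members.

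Of 21 tested V-ATPase subunit genes 13 were higher in members, 0 were lower and 8 did not pass, with a median log2 difference of 0.29. Atp6v1c2 averaged 1001 against 602 CPM (0.71), Atp6v1g3 2610 against 1642 CPM (0.66), the accessory subunit gene Atp6ap2 564 against 352 CPM (0.66) and the pore subunit gene Atp6v0c 3321 against 2350 CPM (0.48). The other 9, Atp6v1d, Atp6v1h, Atp6v1g1, Atp6v0d1, Atp6v1c1, Atp6v0e, Atp6v0a1, Atp6v0b and Atp6ap1, had differences between 0.21 (Atp6v1d) and 0.57 (Atp6ap1). Atp6v1b1 averaged 326 against 360 CPM and did not pass (-0.15, adjusted p = 0.148). Every difference among the pump genes was thus under 1 log2 unit. Principal cells averaged 6.26 CPM of Atp6v1c2.

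Among the identity genes of intercalated cells, 10 of 26 were higher and 12 lower in members (median -0.19, the same with Hmx3 at its bound). Higher were the Notch ligand gene Jag1 (198 against 50.3 CPM, 1.94), the adhesion gene Hepacam2 (502 against 172 CPM, 1.51), the protease inhibitor gene Spink8 (1227 against 262 CPM, 2.23), Insrr (443 against 15.5 CPM, 4.91) and Lgals3 (0.92). Tmem213 (0.29) and Tfap2b (0.58) were higher by less, and turned to -0.05 in cells with at most 20% mitochondrial UMIs and to -0.22 with members of at most 1 Aqp2 UMI and no Slc4a1 UMI. The master regulator Foxi1 averaged 277 against 241 CPM (0.19, edgeR adjusted p = 0.0493) and did not pass without any one of the 6 mice (0.0594 to 0.19). Tfcp2l1, a transcription factor shared by collecting duct cells, averaged 879 against 1117 CPM (-0.37). Lower were also Clnk (-1.49), an adaptor of immune receptor signalling, and the oxoglutarate receptor Oxgr1 (223 against 307 CPM, -0.49), and Elf5, Grhl2, Hes1, Ppargc1a and Foxp1 lay between -2.70 (Elf5) and -0.21 (Foxp1).

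Receptors for hormones and metabolites showed 8 higher and 6 lower of 17 tested (median 0.20). The calcium-sensing receptor Casr averaged 32.9 against 4.68 CPM (2.78), the prostaglandin E2 receptors Ptger3 181 against 81.1 CPM (1.15) and Ptger4 20.5 against 8.62 CPM (1.24), the parathyroid hormone receptor Pth1r 46.3 against 24.5 CPM (0.91) and the secretin receptor Sctr was higher by 0.84 on the log2 scale. Avpr1a (0.48) and Egfr (0.38) were higher too. Beside Calcr and Oxgr1, the insulin receptor Insr (-0.65), Igf1r (-0.35), Avpr2 (-0.41) and Ptger1 (-0.84) were lower. Of the mineralocorticoid and WNK pathway, 5 of 19 genes were higher and 7 lower (median -0.05): the sodium channel subunits split, with Scnn1a at 431 against 335 CPM (0.33, but -0.04 in cells with at most 20% mitochondrial UMIs) and Scnn1b at 81.2 against 155 CPM (-0.96), and the mineralocorticoid receptor Nr3c2 averaged 428 against 497 CPM (-0.22, adjusted p = 0.0168). Sgk1, Nr3c1, Wnk4 and Klhl3 were higher by 0.36 (Sgk1) to 0.47 (Klhl3), and Zbtb16, Klf9, Tsc22d3, Stk39 and Fkbp5 lay between -0.84 (Zbtb16) and -0.47 (Fkbp5). Of the purinergic genes 6 were tested: the adenosine-forming ectonucleotidase Nt5e was higher (0.52) and the UDP-sugar receptor P2ry14 lower (10.7 against 91.9 CPM, -3.16). Of the injury, matrix and defence list, 10 of 17 were higher and 2 lower (median 0.42), among them osteopontin, Spp1, at 4496 against 1835 CPM (1.39) and the antimicrobial peptide gene Defb1 at 876 against 3288 CPM (-1.93). Also higher were Cxcl1 (2.10), Tgfb2, Tgfb1, Krt8, Ccn2, Ccn1, Tnfrsf12a, Nox4 and Krt18 (0.29), and lower Lcn2 (-1.46). Of the immediate early and heat shock genes, 1 of 20 was higher (Hspa8, 0.25) and 8 lower (median -0.14), from Hspa1b (-1.34) and Hsph1, Hspa1a, Junb, Zfp36, Atf3 and Jun to Fos (-0.24). Of the cell cycle genes, Cdkn1a was higher (0.35) and Ccnd1 lower (-0.67).

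DOCA-salt and sham members were then compared within the pendrin-positive sums (edgeR quasi-likelihood test, 10350 genes, CPM scaled by the TMM factors). The adjusted p was below 0.05 for 382 genes higher (3.69%) and 347 lower (3.35%) in DOCA-salt. Of these, 256 and 285 averaged at least 20 CPM and did not overlap between the groups. A lack of overlap was thus common among called genes and is given below as description, not as a further test. Its share over all genes tested is not given. Of 5 markers of type A cells, Adgrf5 and Aqp6 rose and 3 did not pass. The chloride channel subunit gene Bsnd and the proton pump gene Atp4a rose as well. Aqp6 and Atp4a changed sign in members with at most 20% mitochondrial UMIs. By contrast, 5 of 19 tested genes of the mineralocorticoid and WNK pathway, among them Sgk1, Klf9 and Per1, fell. So did 11 of 20 immediate early and heat shock genes. In the mineralocorticoid list 1 gene, Fkbp5, rose and 13 did not pass. Slc26a4 itself, with the cells selected on it, stood at 1884, 1902 and 1967 CPM in the sham mice and 2120, 2037 and 1966 CPM in the DOCA-salt mice. Scaling by library size alone moved the median of all genes from 0.01 to -0.13 and gave 275 higher and 730 lower, so that 27.4% instead of 52.4% of the calls were higher. The counts without 1 mouse were 193 and 198 (Sham 1), 547 and 509 (Sham 2), 247 and 220 (Sham 3), 248 and 175 (DOCA-salt 1), 323 and 280 (DOCA-salt 2) and 148 and 132 (DOCA-salt 3), and in members with at most 20% mitochondrial UMIs (56, 68 and 41 cells in the sham and 18, 22 and 18 in the DOCA-salt mice) they were 70 and 47.

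**Figure D3:**
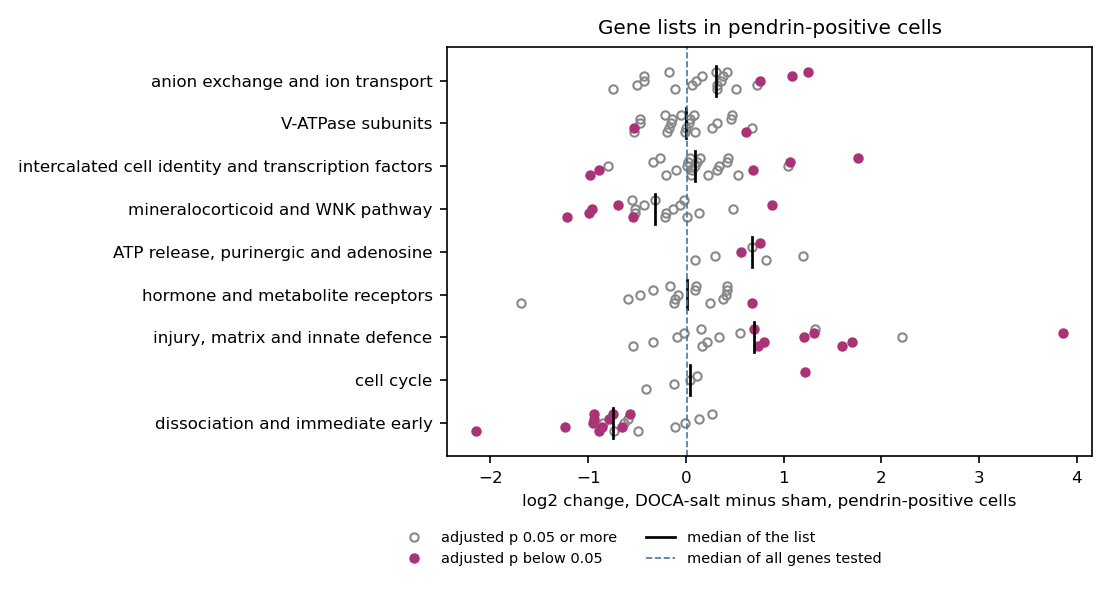
Log2 change from sham to DOCA-salt of each tested gene of the 9 lists in pendrin-positive cells, filled where the adjusted p was below 0.05, with a bar at each list's median and a dashed line at the median of all genes tested (0.01). The median was 0.70 for the injury, matrix and defence list and -0.74 for the immediate early list.

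Of the 20 tested genes of anion exchange and ion transport, 3 rose and 0 fell, with a median log2 change of 0.31 beside 0.01 over all genes. Bsnd, which encodes barttin, the subunit that ClC-K chloride channels need, stood at 84.8, 86.8 and 92.1 CPM in the sham mice and 198, 143 and 202 CPM in the DOCA-salt mice. All DOCA-salt mice lay above all sham mice, a log2 change of 1.08 (SE 0.16, edgeR adjusted p = 0.00183). Atp4a, the catalytic subunit of the gastric-type H,K-ATPase, stood at 60.9, 32.5 and 57.3 CPM against 98.8, 126 and 125 CPM, again without overlap (1.25, SE 0.21, adjusted p = 0.0043). Clcn5, an endosomal chloride/proton exchanger gene, rose from 280, 277 and 335 CPM to 537, 487 and 442 CPM (0.76, SE 0.15, adjusted p = 0.00868; 0.0562 without Sham 1). In members with at most 20% mitochondrial UMIs Bsnd had a change of 0.76 (adjusted p = 0.192), whereas those of Atp4a and Clcn5 turned to -0.45 (0.722) and -0.08 (0.941).

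Slc4a9 stood at 1345, 997 and 1314 CPM in the sham mice and 808, 916 and 781 CPM in the DOCA-salt mice. Every DOCA-salt mouse lay below every sham mouse, but the log2 difference of -0.51 (SE 0.16) did not pass (edgeR adjusted p = 0.083). It passed with DESeq2 (0.0418), without the count filter (0.0219), with library size scaling (0.0249) and without Sham 2 (0.00951). In every other alternative that gave a value, the other repeats without a mouse among them, Slc4a9 did not pass. Library size scaling also moved the median of all genes to -0.13. The share of thinned members with an Slc4a9 UMI was 62.8% to 71.0% in the sham and 48.8% to 53.9% in the DOCA-salt mice (means 67.9% and 50.6%, exact permutation p = 0.1, the smallest that 3 against 3 mice allow), and 98.1% and 96.6% before thinning. Thinning drew from all UMIs, of which mitochondrial genes took 21.8% in sham and 32.0% in DOCA-salt members (means of the mouse medians). The effect of this on the shares was not tested. Other transport genes of these cells that did not pass were Car12 (log2 difference 0.42, adjusted p = 0.103), Car15 (-0.43, 0.311), Rhcg (0.36, 0.279) and Fxyd2 (-0.11, 0.773). Of the list, 6 members, among them Slc26a7, Cftr and Atp12a, were too sparse for a test in members.

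Of 22 tested V-ATPase subunit genes 1 rose and 1 fell, and the median was 0.00 (-0.00283). Atp6v1b2, the B2 subunit of the pump head, fell from 180, 175 and 170 CPM to 126, 110 and 117 CPM (-0.53, SE 0.13, edgeR adjusted p = 0.0286). Atp6ap1, an accessory subunit gene, stood at 378, 494 and 409 CPM against 716, 492 and 698 CPM, so that DOCA-salt 2 lay among the sham mice (0.62, adjusted p = 0.047). Neither passed without Sham 1 (0.105 and 0.194), nor did they without several other mice, and Atp6ap1 turned to -0.21 in members with at most 20% mitochondrial UMIs. Atp6v1g3, at 2783, 2230 and 2305 against 2739, 2504 and 2375 CPM, had a difference of 0.10 (adjusted p = 0.777), which was -0.04 with library size scaling and -0.08 in the cells with at most 20% mitochondrial UMIs.

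Of the type A markers, Adgrf5 and Aqp6 rose in members. Adgrf5 stood at 83.1, 72.5 and 61.4 CPM in the sham mice and 228, 213 and 272 CPM in the DOCA-salt mice, a ratio of 3.29 and a log2 change of 1.76 (SE 0.16, edgeR adjusted p = 0.000101), and it passed under every alternative run. Its share of thinned members with a UMI was 5.68 ± 0.402% in sham and 16.7 ± 2.48% in DOCA-salt mice, with no overlap (34.6% and 62.4% before thinning), beside 66.3% and 69.5% in type A and 0.468% and 1.52% in principal cells. Aqp6 rose from 143, 99.9 and 109 CPM to 240, 203 and 276 CPM (1.07, SE 0.17, adjusted p = 0.0031), and its thinned share was 5.35% to 6.87% in the sham and 12.9% to 16.7% in the DOCA-salt mice (means of 22.9% and 43.0% before thinning). In members with at most 20% mitochondrial UMIs the difference of Aqp6 was -0.46 (adjusted p = 0.577). The other type A markers did not pass: Kit stood at 37.9, 75.7 and 38.5 against 72.0, 51.7 and 47.8 CPM (0.22, adjusted p = 0.671), Dmrt2 at 4.84, 6.74 and 3.28 against 8.44, 3.81 and 7.16 CPM (0.43, 0.6) and Slc4a1 at 44.8, 44.4 and 23.7 against 38.7, 9.26 and 33.4 CPM (-0.43, 0.566). The groups overlapped for each of these 3 genes. The genes lie on separate chromosomes, Adgrf5 at chr17:43671009-43770448 and Aqp6 at chr15:99499075-99503358 (GRCm39, both on the plus strand).

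Over the whole identity list 3 of 25 genes rose and 2 fell (median 0.10). Spink8 rose from 952, 774 and 1014 CPM to 1577, 1193 and 1508 CPM (0.68, SE 0.17, edgeR adjusted p = 0.0268), and turned to -0.50 in members with at most 20% mitochondrial UMIs. Clnk fell from 110, 98.7 and 104 CPM to 53.1, 54.5 and 46.0 CPM (-0.98, SE 0.14, adjusted p = 0.00179), and Ppargc1a, a coactivator that drives mitochondrial biogenesis, from 518, 639 and 513 CPM to 281, 266 and 327 CPM (-0.89, SE 0.15, adjusted p = 0.00374). The mouse values of both genes did not overlap, and Ppargc1a passed under every alternative run. Pendrin-cell markers did not pass: Insrr had a difference of 0.10 (adjusted p = 0.784; -0.03 with library size scaling and -0.38 in the cells with at most 20% mitochondrial UMIs) and Hmx2 of -0.10 (0.867), which turned to 0.06 without DOCA-salt 3 and 0.10 without Sham 2. Foxi1 (0.42, 0.262) and Tfcp2l1 (0.05) did not pass either.

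**Figure D4:**
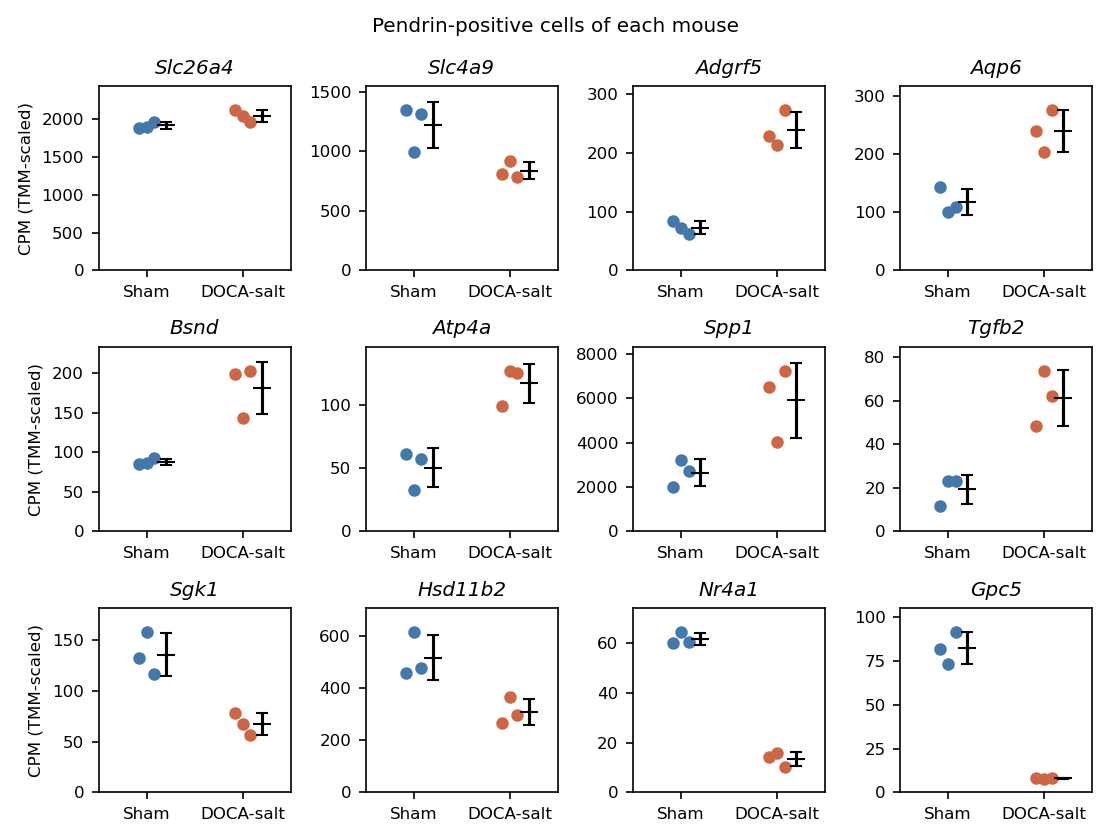
CPM, on linear axes from 0, of 12 genes in the pendrin-positive cells of each mouse, with 1 point per mouse and a bar for the mean and SD of 3 mice. Adgrf5, Aqp6, Bsnd, Atp4a, Spp1 and Tgfb2 lay higher and Sgk1, Hsd11b2, Nr4a1 and Gpc5 lower in all 3 DOCA-salt than in all 3 sham mice, and Slc4a9 was lower without passing the test.

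In the mineralocorticoid and WNK pathway 1 of 19 genes rose and 5 fell, with a median of -0.32. Sgk1, a kinase gene that aldosterone induces in principal cells, fell from 132, 158 and 117 CPM to 78.5, 67.0 and 56.7 CPM (-0.96, SE 0.16, edgeR adjusted p = 0.00391). Klf9, a target of steroid receptors, fell from 191, 220 and 233 CPM to 95.4, 83.9 and 89.5 CPM (-1.22, SE 0.14, adjusted p = 0.000913). Per1, a clock gene that aldosterone also induces, fell from 40.4, 44.8 and 43.8 CPM to 23.3, 21.8 and 17.3 CPM (-1.0, SE 0.18, adjusted p = 0.00602). All 3 had no overlap between the groups. Nedd4l, a ubiquitin ligase gene that acts on the sodium channel, fell by 0.54 on the log2 scale (adjusted p = 0.0302; 0.0922 without Sham 1). Fkbp5, a chaperone gene that glucocorticoid and mineralocorticoid receptors induce, rose from 22.6, 21.8 and 22.1 CPM to 38.7, 44.7 and 35.2 CPM (0.88, SE 0.18, adjusted p = 0.0102). Hsd11b2, the enzyme gene that inactivates glucocorticoids and is a principal cell marker, stood at 457, 615 and 478 against 265, 364 and 298 CPM (-0.70, adjusted p = 0.0245), but with members limited to at most 1 Aqp2 UMI and no Slc4a1 UMI the difference was 0.39 (0.567). Nr3c2 (-0.22, 0.454) and Scnn1a (0.48, 0.0823) did not pass.

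Few genes of ATP release and purinergic signalling could be tested, 7 of 23. Nt5e rose from 26.2, 27.3 and 26.2 CPM to 47.7, 41.9 and 41.2 CPM (0.76, SE 0.16, edgeR adjusted p = 0.0137; 0.0559 without Sham 1). Entpd5, a nucleoside diphosphatase gene of the endoplasmic reticulum, rose from 59.3, 69.3 and 59.0 CPM to 98.3, 76.8 and 94.3 CPM (0.56, adjusted p = 0.0347), did not pass without Sham 1 (0.134) and turned to -0.15 in members with at most 20% mitochondrial UMIs. The list's median was 0.68 over its 7 tested genes, and 16, among them Panx1 and P2rx7, were too sparse. Of 16 tested hormone and metabolite receptors 1 rose (median 0.01): Avpr1a, the V1a vasopressin receptor, stood at 112, 124 and 108 against 212, 168 and 153 CPM (0.67, SE 0.15, adjusted p = 0.0169; 0.0786 without DOCA-salt 1), and at -0.24 on the log2 scale in the cells with at most 20% mitochondrial UMIs. Oxgr1 (-0.34, 0.213) and Ptger3 (0.10) did not pass.

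Of 19 tested genes of injury, matrix and innate defence, 8 rose and 0 fell (median 0.70). Tgfb2, a profibrotic cytokine gene, rose from 11.7, 23.0 and 23.3 CPM to 48.2, 73.5 and 62.1 CPM (1.70, SE 0.25, edgeR adjusted p = 0.00182), and its relative Tgfb1 from 4.84, 3.96 and 4.91 CPM to 13.4, 15.3 and 11.9 CPM (1.60, SE 0.29, adjusted p = 0.00631). Lcn2, an iron-chelating injury marker, stood at 4.04, 1.59 and 2.46 CPM against 26.8, 73.0 and 15.5 CPM (3.86, SE 0.58, adjusted p = 0.00205), which rests on 20 sham and 214 DOCA-salt UMIs. The counts that let Lcn2 enter the test came mostly from the DOCA-salt mice, so its call is not separate support for a rise. Tgfb2, Tgfb1 and Lcn2 passed under every alternative that could test them. Spp1 rose from 1990, 3202 and 2747 CPM to 6522, 4022 and 7238 CPM (1.21, adjusted p = 0.00734; 0.0619 without DOCA-salt 3). Defb1 (0.70, 0.0116), the transcription factor gene Sox4 (0.74, 0.0105), the chaperone gene Clu (1.31, 0.0207) and the oxidase gene Nox4 (0.80, 0.0396) rose too, without passing in at least 1 of the repeats without a mouse: without Sham 1 their adjusted p was 0.0769, 0.0655, 0.0661 and 0.148. Of the cell cycle genes 5 of 10 were tested and Ccnd1, which drives entry into the cycle, rose from 41.6, 60.2 and 36.9 CPM to 85.4, 137 and 90.1 CPM (1.22, SE 0.22, adjusted p = 0.00543), while Mki67, Top2a, Cdk1, Ccnb1 and Ccna2 were too sparse.

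Of 20 tested immediate early and heat shock genes, which tissue digestion can induce, 11 fell in DOCA-salt members, 0 rose and 9 did not pass, with a median of -0.74. Nr4a1, an orphan nuclear receptor gene, fell from 60.1, 64.6 and 60.6 CPM to 14.4, 15.8 and 10.1 CPM (-2.14, SE 0.19, edgeR adjusted p = 8.31e-05) and passed under every alternative run. Egr1 fell from 667, 814 and 651 CPM to 308, 484 and 282 CPM (-0.94, adjusted p = 0.0129), and Fos from 1347, 1359 and 1229 CPM to 937, 868 and 760 CPM (-0.57, 0.0297). Both groups were apart for each gene. The other members that fell were Fosb (-0.95), Jund (-0.94), Dnajb1 (-1.23), Junb (-0.86), Atf3 (-0.89), Btg2 (-0.79), Hspa1a (-0.75) and Klf6 (-0.65), the last of which turned to 0.17 in members with at most 20% mitochondrial UMIs. Fosb and Nr4a1 passed without each mouse, and the other 9 did not in 1 or more of those repeats: without DOCA-salt 3, for example, the adjusted p was 0.0903 for Egr1, 0.174 for Fos, 0.144 for Junb and 0.102 for Jund. Hspa1a has a near-identical copy, Hspa1b, and reads could be split between them. Jun (-0.59, 0.0618) and Dusp1 (-0.84, 0.0676) did not pass.

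RNA of immune and stromal markers moved with the treatment, while the summed levels of markers of other tubule segments and of endothelium overlapped between the groups. The summed level of 9 immune markers in members was 17.3 ± 8.91 CPM in sham and 81.0 ± 32.1 CPM in DOCA-salt mice (SD, n = 3 each), beside 23.3 and 81.1 CPM in type A cells and 21.1 and 69.4 CPM in principal cells. By mouse it ran from 7.01 to 23.2 CPM in the sham and from 49.6 to 114 CPM in the DOCA-salt members, and in the latter the lymphocyte genes Cd3e and Cd79a and, by the rule, Ptprc were at 0. Of 8 immune markers outside the rule, 3 had enough counts for a test, and these passed. Cd74, the invariant chain of antigen presentation, stood at 16.1, 4.36 and 12.7 against 29.3, 78.4 and 38.2 CPM (2.17, SE 0.42, edgeR adjusted p = 0.00816). Lyz2 had 8 sham and 55 DOCA-salt UMIs and C1qa 10 and 47. The counts that let Lyz2 and C1qa enter the test came mostly from the DOCA-salt mice. That these 2 passed is therefore not separate support for a rise. Stromal markers summed to 61.3 ± 15.6 and 191 ± 19.1 CPM in members, 17.1 and 119 CPM in type A cells and 14 and 75.1 CPM in principal cells, with ranges of 44.2 to 74.6 and 176 to 212 CPM in members, where Col3a1 was at 0 in all sham mice and Col1a1, by the rule, in all mice. Dcn, which made up most of that sum in sham members, rose from 60.1, 35.7 and 33.2 CPM to 152, 111 and 109 CPM (1.57, SE 0.22, adjusted p = 0.00159). Mgp, a matrix protein gene, stood at 1.21, 1.98 and 2.05 against 28.3, 46.3 and 43.0 CPM (4.48, SE 0.33, adjusted p = 2.51e-05), on 13 sham and 214 DOCA-salt UMIs. The counts that let Mgp enter the test also came mostly from the DOCA-salt mice, so its call is not separate support for a rise. Thick ascending limb markers summed to 525 ± 223 CPM in sham and 230 ± 55.3 CPM in DOCA-salt members, beside 170 and 151 CPM in type A cells and 197 and 129 CPM in principal cells. Umod made up most of the sum in members, with 3300 sham and 977 DOCA-salt UMIs. The other 3 tested markers, Egf, Cldn10 and Ppp1r1a, did not pass, and Slc12a1, also in the sum, was limited by the rule. Principal and connecting tubule markers summed to 5070 ± 297 against 4124 ± 1013 CPM in members and 4118 against 3998 CPM in type A cells, and Klk1 (-0.96, adjusted p = 0.0306), Apela (-1.12, 0.0158) and Umod (-1.29, 0.0247), whose groups overlapped, fell. Without DOCA-salt 3 the adjusted p of these 3 genes was 0.168, 0.0803 and 0.118, and that of C1qa was 0.0969. In members with at most 20% mitochondrial UMIs the change of Dcn was 0.59 (0.644). Proximal tubule markers summed to 3723 ± 1320 and 2912 ± 216 CPM with 0 of 8 passing. Distal convoluted tubule markers summed to 98.8 ± 37.7 and 117 ± 36.5 CPM. Of the 2 tested, Trpm6 passed as a rise, on 51 sham and 174 DOCA-salt UMIs. Endothelial markers summed to 11.3 ± 4.09 and 22.8 ± 11.6 CPM, and the 1 tested did not pass. The doublet caller Scrublet marked 7 of 138, 11 of 149 and 5 of 175 members in Sham 1, 2 and 3. In DOCA-salt 1, 2 and 3 it marked 12 of 126, 13 of 98 and 9 of 118. With the marked members removed, 70 named genes kept their direction and side of the threshold and 1 lost the call. Whether these RNAs came from the members or from other cells was not tested.

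By size, the 12 largest rises among genes that passed, averaged at least 20 CPM over the 6 mice and did not overlap between the groups were Dcdc2a, Mgp, Lcn2, 2610307P16Rik, Krt19, Ltc4s, Col14a1, Nlgn1, Cd74, Anxa1, Tprn and B4galnt1. Dcdc2a, a doublecortin-domain gene, stood at 1.61, 0 and 3.28 CPM in the sham mice and 18.4, 75.2 and 41.8 CPM in the DOCA-salt mice (4.79, SE 0.64, edgeR adjusted p = 0.0013), on 12 and 245 UMIs. The noncoding 2610307P16Rik stood at 6.46, 11.9 and 16 against 41.2, 126 and 102 CPM (3.00, SE 0.39, adjusted p = 0.00129). DOCA-salt 2 was the highest mouse for both. The counts that let Dcdc2a, Mgp and Lcn2 enter the test and reach 20 CPM came mostly from the DOCA-salt mice. That they passed is therefore not separate support for a rise. Ltc4s, the leukotriene C4 synthase gene, rose from 10.9, 8.32 and 5.32 CPM to 40.7, 44.7 and 60.9 CPM (2.60, SE 0.26, adjusted p = 0.000255). Krt19, a keratin gene, rose by 2.75 on the log2 scale (adjusted p = 0.00406), the collagen gene Col14a1 by 2.36 (0.00129), the adhesion gene Nlgn1 by 2.23 (0.00682), annexin gene Anxa1 by 1.98 (0.00838), Tprn by 1.86 (0.00188) and B4galnt1, a ganglioside synthase gene, by 1.83 (0.000681). Krt19 did not pass once members were limited to at most 1 Aqp2 UMI and no Slc4a1 UMI, with a difference of 1.48.

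By the same rule the 12 largest falls were Gpc5, Nr4a1, Inmt, Lncpint, Cebpd, Rasd1, Nr1d1, Gm26632, Angpt1, 4930469K13Rik, Malrd1 and Emp1. Gpc5, a heparan sulfate proteoglycan gene, fell from 81.5, 73.3 and 91.3 CPM to 7.95, 7.63 and 8.36 CPM (-3.31, SE 0.19, edgeR adjusted p = 3.79e-06). Lncpint, a noncoding RNA that p53 induces, fell from 451, 428 and 440 CPM to 114, 123 and 76.4 CPM (-2.03, SE 0.18, adjusted p = 8.31e-05). Cebpd, a transcription factor gene of acute responses, fell from 280, 334 and 276 CPM to 66.6, 76.3 and 84.2 CPM (-1.93, SE 0.15, adjusted p = 3.99e-05). The lack of overlap between the groups was set by the rule that picked these genes. The clock repressor gene Nr1d1 fell from 58.5, 63.8 and 55.3 CPM to 12.4, 22.3 and 11.9 CPM (-1.88, 0.000935), Malrd1 from 391, 366 and 440 CPM to 128, 127 and 110 CPM (-1.67, 8.31e-05) and Rasd1, a dexamethasone-induced Ras gene, from 37.1, 32.5 and 27.0 CPM to 6.95, 13.6 and 4.18 CPM (-1.91, 0.0033). The vascular growth factor gene Angpt1 fell by 1.77 (log2 change -1.77, adjusted p = 0.00105), and the membrane protein gene Emp1 had a change of -1.66 (0.00234).

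**Figure D5:**
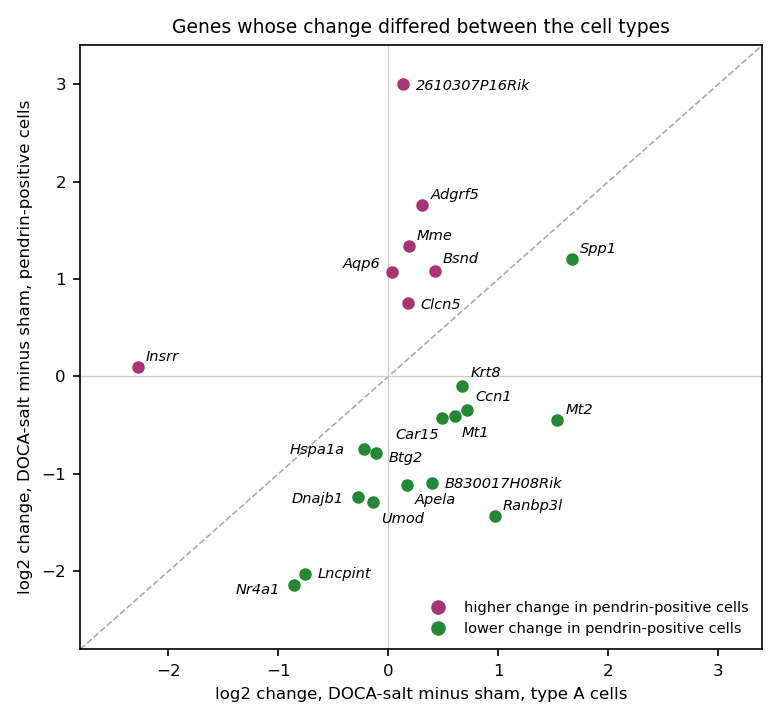
Fitted log2 change from sham to DOCA-salt in pendrin-positive cells (vertical axis) against that in type A cells (horizontal axis) for the 22 named genes whose change differed between them, with a dashed line at equal change. Adgrf5 changed by 1.76 in pendrin-positive cells beside 0.31 in type A cells, and Insrr lay near 0 in pendrin-positive cells and at -2.28 in type A cells.

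Whether members responded otherwise than type A cells was tested as the difference of the 2 log2 changes, over 10570 genes and with the same mice in both arms. It was above 0 for 46 genes (0.435%) and below 0 for 56 (0.53%), against 23 and 29 without Sham 1, 34 and 64 without the mitochondrially encoded genes and 2 and 6 in the cells with at most 20% mitochondrial UMIs. The largest differences by adjusted p were Adgrf5 (1.47, SE 0.13, edgeR adjusted p = 2.57e-07), whose change in type A cells was 0.31 (0.475), and 2610307P16Rik (2.85, SE 0.25, 2.57e-07), and these held under every alternative run. Aqp6 differed by 1.04 (2.31e-05), with a type A change of 0.04, and Mme, the neprilysin gene, by 1.15 (6.16e-05), after a rise in members from 61.4, 55.5 and 52.0 CPM to 164, 111 and 139 CPM. Insrr differed by 2.39 (0.000236): it stood at 26.9 CPM in sham and 5.39 CPM in DOCA-salt type A cells, with little difference in members. Below 0 were the metallothionein genes Mt2 (-1.92, 2.31e-05) and Mt1 (-1.02, 0.000145), which bind heavy metals, with Mt2 higher in DOCA-salt type A cells (1.54, adjusted p = 0.00761) and at -0.45 in members (0.125). Lncpint (-1.28), Ranbp3l (-2.42), Car15 (-0.97) and B830017H08Rik (-1.50, which overlaps Fam246a on the same strand and is uncertain) were also below 0. Bsnd (0.65, 0.0435) and Clcn5 (0.58, 0.0487) differed at the edge of the threshold: without Sham 1 their adjusted p was 0.194 and 0.144, and with DESeq2 0.231 and 0.0827. Atp4a differed by 0.91 without passing (0.0531).

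By list, the difference from type A cells was above 0 for 3 of 26 identity genes and 2 of 20 transport genes, and below 0 for 1 transport gene, 3 of 21 injury genes (Ccn1 at -1.07, Krt8 at -0.82 and Spp1 at -0.44) and 4 of 20 immediate early genes (Nr4a1 at -1.28, Dnajb1 at -1.03, Btg2 at -0.68 and Hspa1a at -0.56). Among markers of other segments it was below 0 for Umod (-1.24, edgeR adjusted p = 0.000781), 1 of 4 tested thick ascending limb markers, and for Apela (-1.26, 0.0105; 0.195 without DOCA-salt 2), 1 of 12 principal and connecting tubule markers. It passed for 0 of 22 V-ATPase genes and 0 of 19 mineralocorticoid genes. Slc4a9, with a change of -0.51 in both cell types, differed by 0.00, and Dcn by -0.49 (adjusted p = 0.899).

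Principal cells differed in depth between the groups without overlap. Their median was 9944, 9002.5 and 8414.5 UMIs in Sham 1, 2 and 3 and 12800, 15933 and 10833 in DOCA-salt 1, 2 and 3. Against principal cells the difference of the changes passed for 330 genes above 0 (2.93%) and 590 below (5.24%) of 11257. These counts were 188 and 326 without Sham 1, 245 and 381 without Sham 2, 206 and 331 without Sham 3, 189 and 361 without DOCA-salt 3, and 56 and 76 in the cells with at most 20% mitochondrial UMIs. Atp4a differed by 3.72 (SE 0.23, edgeR adjusted p = 2.91e-08), with a change of -2.52 in principal cells (0.000445), and Rhbg by 2.59 (4.66e-08), which fell there from 240 to 41.3 CPM. Sgk1 differed by -1.90 (1.21e-05): it rose in principal cells (0.86, adjusted p = 0.0422) and fell in members. Nr4a1 differed by -3.0 (1.03e-05), Klf2 by -2.60, Rhob by -2.14, Cebpd by -2.14, Niban1 by -2.18 and Itgav by -1.44, while Ppp2r2b (2.56), Slit2 (1.83) and Ptprd (1.70) lay above 0. The difference was below 0 for 16 of 20 immediate early genes and above for 0. Slc4a9 differed by -2.15 (0.00317), where principal cells held 3.89 CPM in sham and 11.4 CPM in DOCA-salt mice. The principal cell values rest on few cells: in DOCA-salt 3 all 20 Slc4a9 UMIs lay in 1 of 114 cells and in DOCA-salt 1 the 19 UMIs lay in 3 of 117, whereas no sham cell held more than 1. Bsnd differed by 1.57 (0.00485) and Tgfb2 by -1.90 (0.00481), and Hsd11b2 by -0.59 (0.0492), which turned to 0.58 (0.212) with members of at most 1 Aqp2 UMI and no Slc4a1 UMI. Of 21 transport genes 6 lay above 0, Fxyd2 (0.67) and Rhcg (0.50) among them, and 3 below, with Clcn3 (-0.61) and Car2 (-0.46). Of 24 V-ATPase genes Atp6v1b1 lay above (0.60) and Atp6v0d2, Atp6v1g3, Atp6v1b2 and Atp6v1g1 below (-1.37 to -0.52). Of 19 mineralocorticoid genes Nr3c2 lay above (0.46) and Sgk1 and Hsd11b2 below. Of 25 injury genes Defb1 (0.60), Sox9 (2.60) and C3 (3.99) lay above and Tgfb2, Krt8, Ccn2, Krt18 and Ccn1 below (-1.90 to -0.97), and C3 fell to a difference of 0.84 without Sham 1 (0.722). Jag1 (-1.02), Spink8 (-0.96) and Ptger1 (-1.40) lay below, and Casr (2.06), Pth1r (0.95), Entpd5 (0.64) and Ccnd1 (0.88) above. Of the 4 tested type A markers, Adgrf5 and Aqp6 among them, 0 passed against principal cells (median -0.77). Type A markers summed to 11.3 ± 5.69 CPM in sham and 36.7 ± 9.28 CPM in DOCA-salt principal cells, without overlap.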

How the data were processed

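Kidneys were digested with collagenase, red cells were lysed, and 1 library per mouse was made with a 10x single-cell kit that counts 3′ ends. The authors made the deposited UMI count matrices (33696 features, whole numbers, not normalized) with Cell Ranger on GRCm39; the processing notes name version 9.0.0 and the matrix headers 8.0.1. Ambient RNA was not removed here. Members and gene lists were chosen with earlier results of these data known. Counts were summed per mouse and cell set and tested with edgeR 4.0.16 (filterByExpr, TMM, quasi-likelihood F test, Benjamini-Hochberg threshold 0.05; R 4.3.3) with no covariate between groups, the mouse as a block between cell sets, and an interaction term for differences of change. Scripts were tested on simulated data. Marker shares were thinned to 1000 UMIs per cell; intervals cover counting error only. Genes were named by list membership, by size (12 or 10 each way) or by smallest p (10), in each case past the threshold; markers and list members that did not pass were named beside them, some after their values were seen. Doublets were not removed in the main result; Scrublet (scanpy 1.11.5) was an alternative, as were DESeq2 1.42.0, its size factors, library size scaling, no count filter, stricter gates, each mouse left out, a replicate block and, added after seeing the data, leaving out mitochondrial genes. Of the type A set, barcodes above 5% hemoglobin UMIs were dropped. Gene positions are from GENCODE on GRCm39. Genes that overlap on the same strand are given as uncertain. Some members of the transport list are counted with it but not reported here by name.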

Additional observations from a re-analysis of the deposited data

Results flagged for a closer look

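The change from sham to DOCA-salt differed between pendrin-positive and type A cells by the interaction test for 22 genes that the text names. The difference of the log2 changes was above 0 for Adgrf5 (1.47), 2610307P16Rik (2.85), Aqp6 (1.04), Mme (1.15), Insrr (2.39), Bsnd (0.65) and Clcn5 (0.58). It was below 0 for Lncpint (-1.28), Mt2 (-1.92), Ranbp3l (-2.42), Mt1 (-1.02), B830017H08Rik (-1.50), Car15 (-0.97), Ccn1 (-1.07), Krt8 (-0.82), Spp1 (-0.44), Btg2 (-0.68), Dnajb1 (-1.03), Nr4a1 (-1.28), Hspa1a (-0.56), Apela (-1.26) and Umod (-1.24). In members and type A cells limited to at most 20% mitochondrial UMIs 4 of the 22 kept their call, 16 lost it, and the differences of Clcn5 (-0.016) and Spp1 (0.037) changed sign. Without the mitochondrially encoded genes 20 of the 22 kept it, and Bsnd and Clcn5 did not pass (edgeR adjusted p = 0.0572 and 0.0626).

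Against principal cells the same test called differences for Atp4a (3.72), Rhbg (2.59), Ppp2r2b (2.56), Slit2 (1.83), Ptprd (1.70) and Bsnd (1.57), and, below 0, for Klf2 (-2.60), Rhob (-2.14), Niban1 (-2.18), Cebpd (-2.14), Itgav (-1.44), Slc4a9 (-2.15), Sgk1 (-1.90), Nr4a1 (-3.0), Hsd11b2 (-0.59) and Tgfb2 (-1.90). The mitochondrial share, which was higher in DOCA-salt members (32.0% against 21.8%) and, to a lesser extent, type A cells (26.7% against 22.2%) and lower in DOCA-salt principal cells (10.0% against 13.2%), moved with the contrasts against both cell types. Of 56 named genes 53 kept their call against principal cells without the mitochondrially encoded genes, and 21 in the cells with at most 20% mitochondrial UMIs. The difference of Slc4a9 rests on few principal cells, since 1 cell held all 20 UMIs of DOCA-salt 3 and 3 cells the 19 of DOCA-salt 1.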

How the results depend on the processing

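Of 71 named genes, 25 kept their direction and side of the threshold in every alternative that gave a value between DOCA-salt and sham members, 60 of 113 between members and type A cells, and 3 of 22 and 18 of 56 for the differences of change from type A and principal cells. Genes higher and lower numbered 382 and 347 for DOCA-salt against sham. Without the count filter they were 630 and 631, with at most 1 Aqp2 UMI and no Slc4a1 UMI 248 higher, in cells with at most 20% mitochondrial UMIs 70 and 47, with library size scaling 730 lower, and without 1 mouse 148 to 547 and 132 to 509. A replicate block gave 172 and 161. The replicate numbers are not known to pair the mice. Same-numbered mice deviated from their group means with correlations of -0.17, -0.34 and -0.06, but 3 mice per group are too few for these values to decide it. Against type A cells the 1331 and 1261 calls became 784 and 726 with DESeq2, 434 and 492 in the cells with at most 20% mitochondrial UMIs, 675 and 681 without the mouse block and 1115 to 1240 and 1078 to 1154 without 1 mouse. The differences of change from type A cells (46 and 56) became 19 and 22 with DESeq2, 93 and 133 without the filter, 2 and 6 in the cells with at most 20% mitochondrial UMIs and 23 to 48 and 29 to 59 without 1 mouse. Those from principal cells (330 and 590) became 92 and 213 with DESeq2, 56 and 76 with at most 20% mitochondrial UMIs and 188 to 297 and 326 to 573 without 1 mouse. The limit of 20% left 223 members, 0.682% of sham and 0.222% of DOCA-salt barcodes. Causes of the differences between these runs were not tested. Applying the gate after thinning gave shares of 1.37% and 0.901%.

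Signs turned for these genes. With at most 20% mitochondrial UMIs, DOCA-salt against sham gave Aqp6 -0.46, Atp4a -0.45, Atp6ap1 -0.21, Atp6v1g3 -0.076, Avpr1a -0.24, Clcn5 -0.084, Entpd5 -0.15, Insrr -0.38, Klf6 0.17 and Spink8 -0.50, the differences of change gave Clcn5 -0.016, Spp1 0.037, Ccn2 0.041, Entpd5 -0.090 and Rhcg -0.23, and members against type A cells gave Scnn1a -0.045 and Tmem213 -0.051. With the stricter Aqp2 and Slc4a1 limits Hsd11b2 gave 0.39 and, against principal cells, 0.58, and Tfap2b -0.22. With library size scaling Atp6v1g3 gave -0.037 and Insrr -0.034. Hmx2 lay between -0.40 and 0.10 without 1 mouse, above 0 without Sham 2 or DOCA-salt 3 (0.060). Without thinning, DOCA-salt minus sham shares turned to 2.26 (Slc4a1), 4.49 (Kit), 1.12 (Aqp3), 0.62 (Hmx2), 0.63 (Atp6v1b1) and 2.30 (Atp6v0d2) percentage points.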
